A study of Mus musculus with 22 samples.

Results

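Nr1d1, Dbp, Per1, Per2 and Arntl are 5 transcripts of the circadian clock, examined here in livers collected between 0.5 and 48 h after an injection, where they can show which livers stand at a like point of the daily cycle and whether the genotypes of a condition match in it. They were chosen by name, each through the probe set that carries its symbol alone, and make up 5 of the 8251 genes that the arrays measured. Each gene had 1 such probe set, so no second one could be set beside it. RNA abundance was measured on 22 Affymetrix arrays, 1 for each genotype and condition.

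SOCS1-/-IFNg-/- mice, which lack Socs1 as well as Ifng, gave 11 livers, and IFNg-/- mice, which lack Ifng alone, gave the other 11. Interferon-gamma of their own was therefore absent from both genotypes, and no wild-type liver was included. Livers came from mice given 4 µg of recombinant interferon-gamma in 100 µl into the peritoneum and sampled at 0.5, 1, 2, 4, 12, 16, 24 and 48 h, from mice given 100 µl of phosphate-buffered saline (PBS) and sampled at 4 and 12 h, and from mice that were not injected. The labels state neither the age of the mice, nor whether a liver sample was 1 mouse or a pool, nor the hour of day at which mice were injected or killed. Whole liver was hybridised, so fewer cells of a type and less RNA per cell cannot be told apart in any value given here.

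The clock is a loop of transcription factors. Arntl (BMAL1) pairs with CLOCK and switches on genes with E-boxes, among them Per1, Per2, Nr1d1 and Dbp. The PER proteins, with the CRY proteins, then block that pair, while Nr1d1 (REV-ERB alpha) represses Arntl. In the liver of mice kept in light and dark, Nr1d1 and Dbp transcripts are known to be high in the light phase, Per1 and Per2 follow around dusk, Cry1 peaks in the night, and Arntl runs opposite to Nr1d1. Dbp, a PAR bZIP factor, passes the rhythm on to metabolic genes and is known as one of the steepest cyclers of the liver.

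Values are log2 expression as the authors deposited it, so a difference of 1 is a doubling. With 1 array per genotype and condition, the spread behind tests of conditions and genotypes is the disagreement between the 2 genotypes over all conditions. Those p-values measure that spread alone. In the fits of a 24 h cosine, the spread also holds the distance of each condition from the fitted curve. A gene was called when its limma p-value, adjusted by Benjamini-Hochberg over the 8251 genes, was below 0.05. Of 9 hepatocyte markers measured, 7 stood at or above the 90th percentile of genes, and the lymphoid markers had a median percentile of 19.9. The SOCS1-/-IFNg-/- interferon 4 h array stood furthest from the rest, with a median Pearson r of 0.972 with the other arrays, against 0.984 to 0.993 for the other 21 arrays. Most called differences between conditions that use this array are given with and without it. Calls of variation over conditions are mostly given with it alone.

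The livers labelled PBS 12 h carried high levels of interferon-induced genes. Cxcl9, a chemokine gene that interferon-gamma induces, read 8.31 in SOCS1-/-IFNg-/- and 7.76 in IFNg-/- livers labelled PBS 12 h, against 4.33 and 4.46 in PBS 4 h livers and 4.31 and 4.16 in untreated livers. Gbp2, an interferon-induced GTPase, read 7.60 and 6.44, against 4.27 and 4.53 at PBS 4 h. In PBS 12 h minus PBS 4 h, Cxcl9 differed by 3.64 ± 0.60 (adjusted p = 0.0605) and Gbp2 by 2.62 ± 0.76 (adjusted p = 0.684), and 0 of the 4 interferon genes measured was called, with 3 at an unadjusted p under 0.05. Comparisons with these livers are therefore no plain comparison with an interferon-free liver, and without both of them variation over conditions was still called for Nr1d1 alone of the 5 genes (adjusted p = 0.0177).

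The probe sets were 98507_at for Nr1d1 (chr11:98767932-98775377), 160841_at for Dbp (chr7:45705100-45710203), 93619_at for Per1 (chr11:69095108-69109965), 93694_at for Per2 (chr1:91415977-91459351) and 102382_at for Arntl (chr7:113178471-113314126). Coordinates are those of the RefSeq genes on GRCm38.p6. The RefSeq promoter windows, from 250 bases before to 50 bases after a transcription start, were searched on both strands for the E-box CACGTG, the E-prime box CACGTT, the D-box TTATGNAA bound by DBP and its relatives, the RORE half-site TAGGTCA or TGGGTCA bound by REV-ERB and ROR receptors, and the cAMP response element TGACGTCA. Windows of Nr1d1, Dbp, Per1 and Arntl were searched. The 3 windows that held a match are shown because the motifs are of the kinds through which the loop is known to close, with the matches in capitals. Whether these matches are bound or used in liver was not tested.

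Nr1d1 promoter, minus strand, chr11:98775328-98775627: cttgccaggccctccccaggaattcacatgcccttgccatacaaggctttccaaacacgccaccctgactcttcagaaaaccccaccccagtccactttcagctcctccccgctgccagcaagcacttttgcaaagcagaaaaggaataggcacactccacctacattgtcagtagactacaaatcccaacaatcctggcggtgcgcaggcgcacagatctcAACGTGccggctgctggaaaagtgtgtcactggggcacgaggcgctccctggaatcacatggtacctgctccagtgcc
Per1 promoter, plus strand, chr11:69098699-69098998: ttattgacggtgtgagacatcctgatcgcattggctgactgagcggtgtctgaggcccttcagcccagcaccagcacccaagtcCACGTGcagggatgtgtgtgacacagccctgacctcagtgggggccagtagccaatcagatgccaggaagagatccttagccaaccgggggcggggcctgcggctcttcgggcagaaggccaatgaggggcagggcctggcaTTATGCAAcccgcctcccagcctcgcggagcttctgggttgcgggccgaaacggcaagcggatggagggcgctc
Arntl promoter, plus strand, chr7:113207261-113207560: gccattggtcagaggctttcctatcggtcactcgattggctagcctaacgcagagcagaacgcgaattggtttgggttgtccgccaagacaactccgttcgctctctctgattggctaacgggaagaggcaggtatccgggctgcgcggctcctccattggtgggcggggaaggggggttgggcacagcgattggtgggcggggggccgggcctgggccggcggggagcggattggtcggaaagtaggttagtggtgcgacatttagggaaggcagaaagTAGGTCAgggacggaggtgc

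In the Nr1d1 window the capitals mark an E-prime box whose first base lies at -28 from the start site. In the Per1 window they mark an E-box at -166 and a D-box at -24. In the Arntl window they mark a RORE half-site at 31. Over all 32851 windows of this length, 4.68% held an E-prime box, 7.15% an E-box, 3.38% a D-box, 6.45% a RORE half-site and 1.79% a cAMP response element. The Dbp window, the other Per1 window and the other Arntl window held none of the 5 motifs, which says only that these letters are not in these windows.

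Nr1d1 varied most among the 5 genes. On single arrays its level ran over a range of 2.16 log2 units, with a standard deviation of 0.73, above that of 99.2% of genes. The corresponding standard deviations were 0.27 for Dbp (the 92.8th percentile of genes), 0.23 for Per2 (the 89.0th), 0.22 for Arntl (the 87.7th) and 0.11 for Per1 (the 36.3rd), against a median of 0.12 over all genes. Nr1d1 alone held 73.7% of the summed variance of the 5 genes and Per1 1.6%. Mean levels lay at the 63.5th percentile of genes for Arntl, the 53.0th for Nr1d1, the 49.8th for Per1, the 18.9th for Dbp and the 4.68th for Per2, on a scale that does not correct for probe differences between genes.

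Nr1d1 in SOCS1-/-IFNg-/- livers read 6.48 untreated and then, from 0.5 to 48 h after interferon, 6.04, 5.90, 5.62, 7.21, 5.48, 5.96, 6.15 and 5.66. In IFNg-/- livers it read 5.68 untreated and, over the same hours, 5.45, 5.42, 5.84, 7.41, 5.65, 7.30, 5.98 and 6.05. After PBS it read 7.57 in SOCS1-/-IFNg-/- and 7.58 in IFNg-/- livers at 4 h, and 5.699 and 5.998 at 12 h. The 4 arrays taken at 4 h, with and without interferon and in both genotypes, were thus high together. One array from another hour joined them, the IFNg-/- liver at 16 h. These 5 arrays lay between 7.21 and 7.58, and the next highest array, the untreated SOCS1-/-IFNg-/- liver, was at 6.48.

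Nr1d2 (REV-ERB beta), the paralog of Nr1d1, picked out the same 5 arrays. Its level was 5.82 to 6.24 in them and at most 5.33 in the other 17. Over the 22 arrays its Pearson r with Nr1d1 was 0.95 and its Spearman rho 0.85. Without the 4 h arrays the Pearson r was 0.89 over 18 arrays, and without the 2 arrays farthest from the median of Nr1d1 it was 0.93. All correlations here are descriptions across arrays that share livers, hours and normalization.

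**Figure D1:**
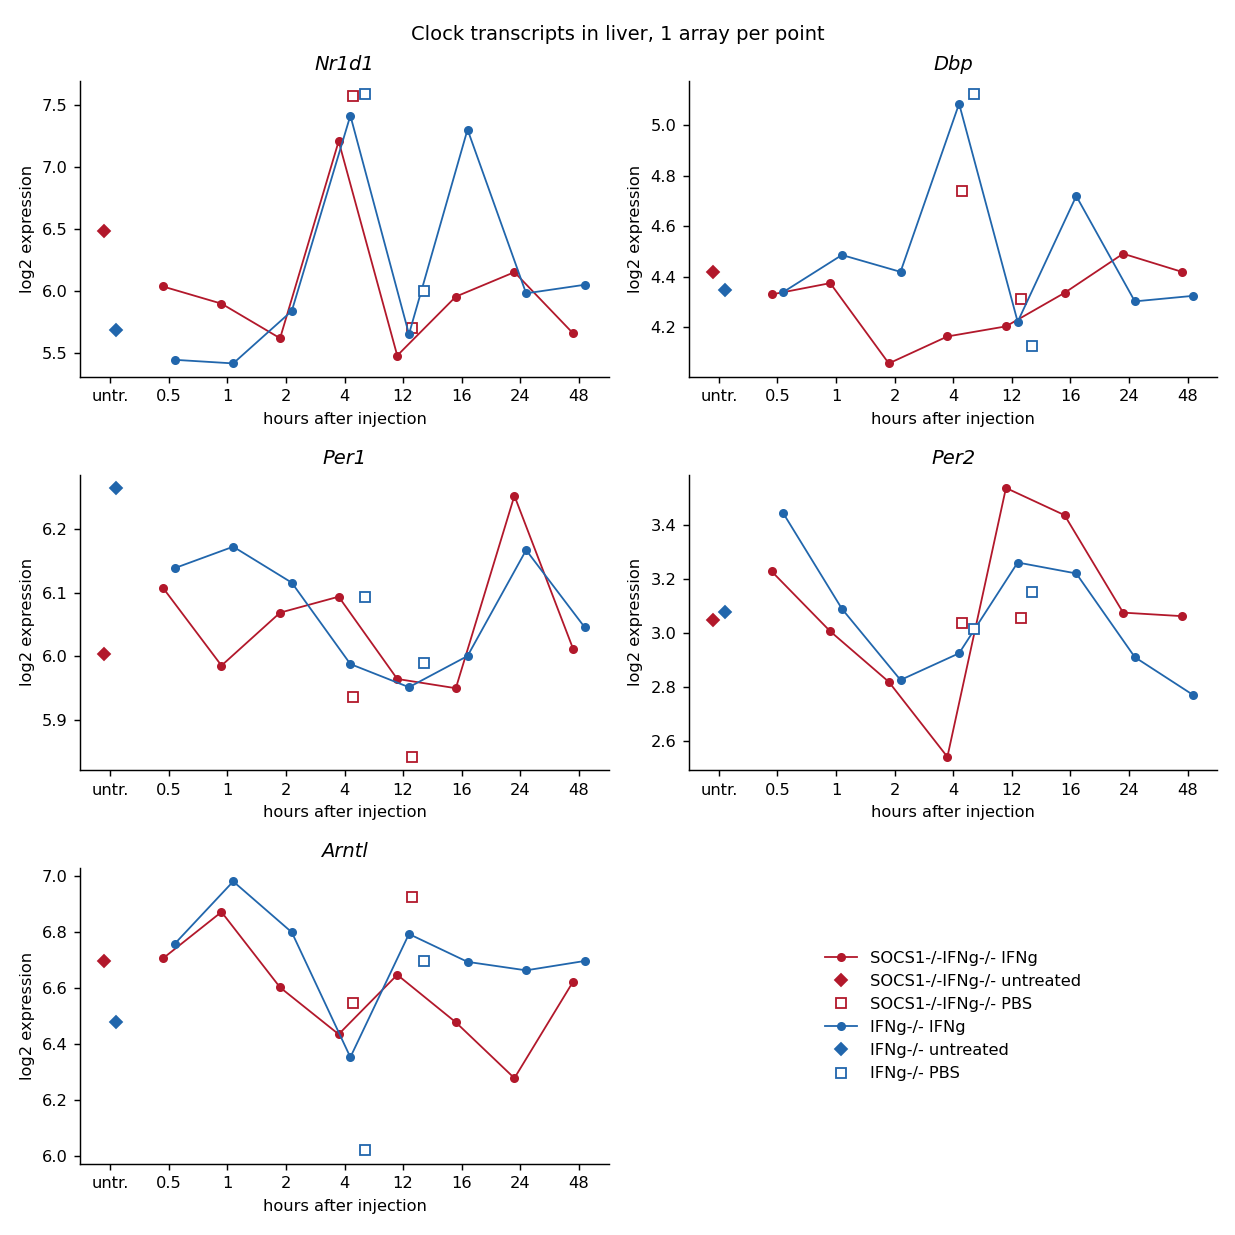
Log2 expression (vertical axes, scaled to each gene) of the 5 clock genes against hours after injection (horizontal axis, conditions evenly spaced and not to scale), 1 array per point. Red marks SOCS1-/-IFNg-/- and blue IFNg-/- livers, lines join interferon arrays, diamonds are untreated and open squares are PBS livers; Nr1d1 reads 7.21 to 7.58 on all 4 arrays of 4 h and 7.30 on the IFNg-/- array of 16 h.

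Variation over the 11 conditions, beyond the disagreement of the genotypes, was called for 1 of the 5 genes, Nr1d1 (adjusted p = 0.0123, limma's moderated F test). Over all genes 4.39% were called. The adjusted p was 0.0633 for Per2, 0.236 for Arntl, 0.35 for Dbp and 0.449 for Per1. Without both PBS 4 h arrays the Nr1d1 call was lost (adjusted p = 0.0776). Without the SOCS1-/-IFNg-/- interferon 4 h array Dbp was called as well (adjusted p = 0.0374), and without the IFNg-/- interferon 4 h array Per2 was (adjusted p = 0.0104).

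The hours were compared first in the livers labelled PBS, of which those of 12 h carried the interferon-induced transcripts given above, whose part in the differences was not tested. In livers labelled PBS 12 h, Nr1d1 was 1.73 log2 units below its 4 h level (difference -1.73 ± 0.34, SE; 95% interval -2.45 to -0.998), lower in both genotypes. The adjusted p of 0.187 missed the threshold, in a comparison that called 0.0242% of all genes and in which 311 genes had an unadjusted p under 0.05. Without one or both 16 h arrays the same difference was called, with an adjusted p of 0.0283. Dbp differed by -0.71 ± 0.20 (adjusted p = 0.667) and Arntl by 0.53 ± 0.16 (adjusted p = 0.776), in opposite directions. Limma called 0 of the 5 genes here, and 3 of the 5, Nr1d1, Dbp and Arntl, had an unadjusted p under 0.05.

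The same hours after interferon gave nearly the same Nr1d1 difference. Nr1d1 fell by 1.74 on the log2 scale (difference -1.74 ± 0.34, adjusted p = 0.016) at 12 h against 4 h. Per2, a repressor of the loop, rose by 0.67 ± 0.14 (adjusted p = 0.0208). These 2 of 5 genes were called, against 2.25% of all genes. Dbp differed by -0.41 ± 0.20 (adjusted p = 0.391), Arntl by 0.33 ± 0.16 (adjusted p = 0.389) and Per1 by -0.08 ± 0.09 (adjusted p = 0.779). Both calls, but not the size of the Nr1d1 difference, rest on the SOCS1-/-IFNg-/- interferon 4 h array. Without it Nr1d1 differed by -1.83 (adjusted p = 0.0805) and Per2 by 0.45 (adjusted p = 0.184). The PBS and interferon comparisons share no arrays, and the difference between them was not tested.

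Interferon against PBS at a matched hour showed no called difference in the 5 genes. At 4 h, Nr1d1 differed by -0.27 ± 0.34 (95% interval -0.99 to 0.46), Dbp by -0.31 ± 0.20 (-0.74 to 0.13), Per1 by 0.03 ± 0.09 (-0.17 to 0.22), Per2 by -0.29 ± 0.14 (-0.59 to -0.00) and Arntl by 0.11 ± 0.16 (-0.23 to 0.45). Limma called 0 of 5 there, with 1 at an unadjusted p under 0.05, against 1.36% of all genes called. At 12 h, against livers that themselves had high Cxcl9 and Gbp2, Nr1d1 differed by -0.28 ± 0.34 (95% interval -1.01 to 0.45) and Per2 by 0.30 ± 0.14 (0.00 to 0.59). There too limma called 0 of 5, with 1 at an unadjusted p under 0.05, against 0.109% of all genes, and 0 of the 4 interferon genes was called either (Cxcl9 3.20 ± 0.60, adjusted p = 0.0711; 3 of 4 at an unadjusted p under 0.05). The intervals still hold changes in Nr1d1 of up to 1.01 log2 units downward. The 4 h result depends on 1 array: without the IFNg-/- interferon 4 h array, which leaves the SOCS1-/-IFNg-/- array alone to stand for interferon, Dbp was lower by -0.73 (adjusted p = 0.0208) and Per2 by -0.51 (adjusted p = 0.0475).

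Livers of 24 and 48 h were taken at the hour of day of their own injection, and all of them had been given interferon. Cxcl9 read 10.3 in SOCS1-/-IFNg-/- and 9.38 in IFNg-/- livers at 24 h, and 5.13 and 5.54 at 48 h, against 4.31 and 4.16 untreated. Comparisons with the 24 and 48 h livers therefore mix hour and treatment, whose parts were not tested. Against these livers the 4 h livers, interferon and PBS together, had Nr1d1 higher by 1.48 ± 0.24 (95% interval 0.97 to 2.00), a fold of 2.79 (adjusted p = 0.00464). It was the 1 of 5 genes called, against 3.31% of all genes. Dbp was higher by 0.39 ± 0.14 (adjusted p = 0.157) and Arntl differed by -0.23 ± 0.11 (adjusted p = 0.319). Without both 48 h arrays the Nr1d1 difference was 1.37 and missed the threshold (adjusted p = 0.0535). Without the SOCS1-/-IFNg-/- interferon 4 h array Dbp was called too, at 0.60 (adjusted p = 0.0153), over 1.5 times its value with that array.

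In Nr1d1 the 12 h livers differed from the 24 and 48 h livers by less than the 4 h livers did. In Per1 and Per2 they differed by more, where the 4 h livers gave -0.09 and -0.08. Nr1d1 differed by -0.25 ± 0.24 (adjusted p = 0.678), Per2 by 0.30 ± 0.10 (adjusted p = 0.167), Per1 by -0.18 ± 0.06 (adjusted p = 0.203) and Arntl by 0.20 ± 0.11 (adjusted p = 0.461). Limma called 0 of 5, with Per1 and Per2 at an unadjusted p under 0.05, against 1.08% of all genes. Without both arrays labelled PBS 12 h, Nr1d1 differed by -0.39 (adjusted p = 0.577) and Per2 by 0.45 (adjusted p = 0.0956). The 24 and 48 h livers in turn differed from untreated livers by -0.12 ± 0.30 in Nr1d1 (adjusted p = 0.971), with 0 of 5 genes called, 0 at an unadjusted p under 0.05, and 0.0606% of all genes called. These comparisons share arrays and are not independent of each other.

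**Figure D2:**
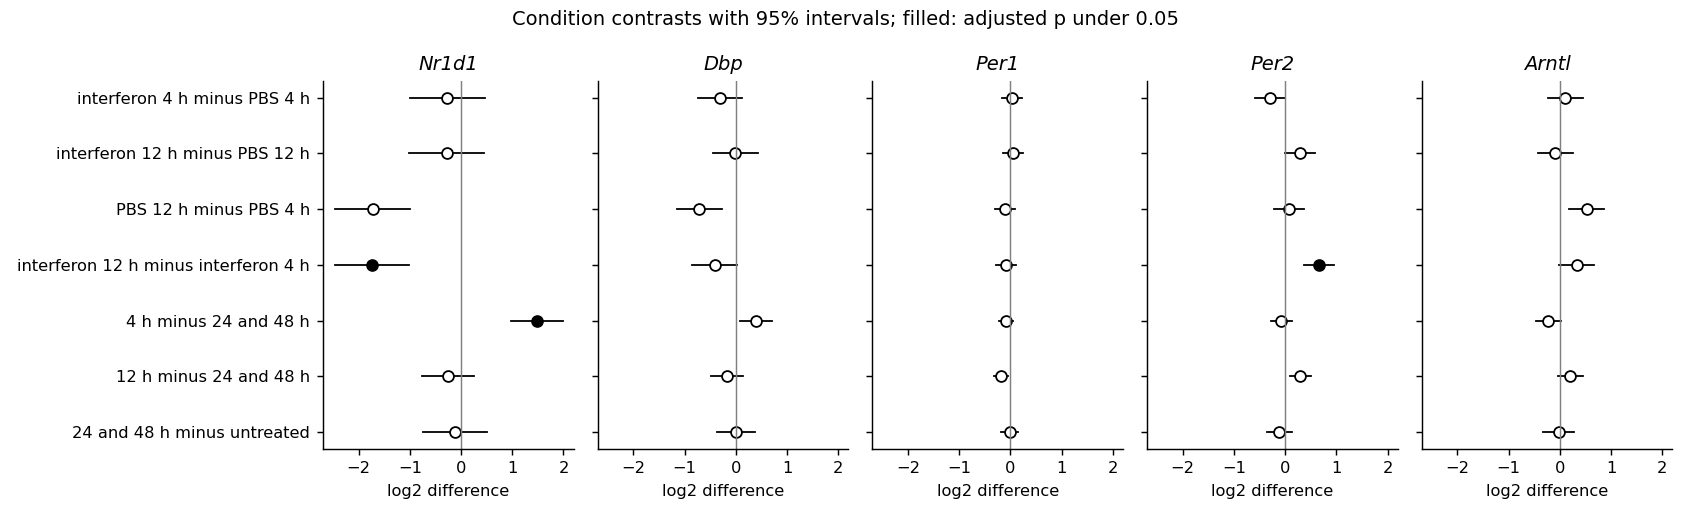
Log2 differences (horizontal axes) of the 5 genes in 7 comparisons of conditions (rows), the first-named condition minus the second, with 95% intervals from limma; filled points have an adjusted p under 0.05. Filled points are Nr1d1 in 12 h against 4 h interferon livers (-1.74) and in 4 h against 24 and 48 h livers (1.48), and Per2 in 12 h against 4 h interferon livers (0.67).

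Dbp, the output factor, was high on fewer arrays than Nr1d1. In SOCS1-/-IFNg-/- livers it read 4.42 untreated and 4.33, 4.37, 4.06, 4.16, 4.20, 4.34, 4.49 and 4.42 from 0.5 to 48 h after interferon. In IFNg-/- livers it read 4.35 untreated and 4.34, 4.49, 4.42, 5.09, 4.22, 4.72, 4.30 and 4.32. After PBS it was 4.74 in SOCS1-/-IFNg-/- and 5.12 in IFNg-/- livers at 4 h, and 4.31 and 4.13 at 12 h. The 4 highest arrays, from 4.72 to 5.12, were 4 of the 5 arrays with high Nr1d1. The remaining one, the SOCS1-/-IFNg-/- interferon 4 h liver, had the third lowest Dbp of all 22 arrays. Pearson r between Dbp and Nr1d1 was 0.72 and Spearman rho 0.46 over 22 arrays, with an r of 0.60 without the 4 h arrays and 0.58 without the 2 arrays farthest from the median of Nr1d1.

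Arntl, the activator that Nr1d1 represses, was lowest in the IFNg-/- PBS 4 h liver at 6.02. The next lowest were the SOCS1-/-IFNg-/- 24 h liver at 6.28, the IFNg-/- interferon 4 h liver at 6.35 and the SOCS1-/-IFNg-/- interferon 4 h liver at 6.44. It was highest in the IFNg-/- liver 1 h after interferon, at 6.98, and in the SOCS1-/-IFNg-/- liver labelled PBS 12 h, at 6.93. The 4 livers of 4 h, at 6.02 to 6.55, overlapped the other 18, at 6.28 to 6.98, and the SOCS1-/-IFNg-/- 24 h liver had low Arntl at an ordinary Nr1d1 of 6.15. Its Pearson r with Nr1d1 was -0.61 (Spearman rho -0.53), but -0.20 over the 18 arrays not taken at 4 h and -0.48 without the 2 farthest arrays, so the relation rests largely on the 4 h livers.

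Per1 varied little, between 5.84 and 6.26. Its 2 highest arrays were the IFNg-/- untreated liver at 6.26 and the SOCS1-/-IFNg-/- 24 h liver at 6.25, and its lowest the SOCS1-/-IFNg-/- liver labelled PBS 12 h, at 5.84. Per2 sat near the low end of the arrays' scale throughout. In SOCS1-/-IFNg-/- livers Per2 read 3.05 untreated and 3.23, 3.01, 2.82, 2.54, 3.54, 3.44, 3.07 and 3.06 from 0.5 to 48 h after interferon. In IFNg-/- livers it read 3.08 untreated and 3.44, 3.09, 2.82, 2.92, 3.26, 3.22, 2.91 and 2.77. In both genotypes the interferon course of Per2 was lower at 2 and 4 h than at 0.5, 12 or 16 h. PBS livers read 3.04 in SOCS1-/-IFNg-/- and 3.01 in IFNg-/- livers at 4 h, and 3.06 and 3.15 at 12 h. Pearson r with Nr1d1 was -0.15 for Per1 and -0.34 for Per2.

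Among 22 core clock genes listed, 16 were measured, and the genes that passed a test beside the members were Nr1d2 and Cry1. Cry1, a repressor of the loop that acts with the PER proteins, rose by 1.68 ± 0.33 at 12 h against 4 h after interferon (adjusted p = 0.0155), while Nr1d2 fell by 1.31 (difference -1.31 ± 0.28, adjusted p = 0.0262). In that comparison 2 of 16 core clock genes rose and 2 fell, where 2.25% of all genes were called, with a median difference of 0.03, against -0.00 over all genes. In 4 h against 24 and 48 h livers, Nr1d2 rose by 0.96 ± 0.20 (adjusted p = 0.0173) and Cry1 was lower, with a difference of -0.99 ± 0.23 (adjusted p = 0.0304). With Nr1d1, this made 3 of 16 called, against 3.31% of all genes, and a median of -0.06, against -0.02 over all genes. With the SOCS1-/-IFNg-/- interferon 4 h array left out, 12 h against 4 h after interferon gave 1.34 for Cry1 (adjusted p = 0.148) and -1.47 for Nr1d2 (adjusted p = 0.0805), neither called. Without it, 4 h against 24 and 48 h gave -0.81 for Cry1 (adjusted p = 0.121) and 1.04 for Nr1d2 (adjusted p = 0.0316), which kept its call. Without the IFNg-/- interferon 4 h array the Nr1d2 difference of 12 h against 4 h was -1.14 (adjusted p = 0.0693). Variation over conditions was called for Nr1d1 and Nr1d2 (adjusted p = 0.0295) among the 16, against 4.39% of all genes. The other comparisons of conditions, and the mean difference between genotypes, called 0 of the 16, where 0.0242% to 1.36% of all genes were called.

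Cry1 read 5.16 in SOCS1-/-IFNg-/- and 6.12 in IFNg-/- livers 4 h after interferon, and 6.16 and 6.23 at 4 h after PBS. At 12 h it read 7.03 in SOCS1-/-IFNg-/- and 7.62 in IFNg-/- livers after interferon, and 6.88 and 6.48 after PBS. It was lower at 4 h than at 12 h in each genotype and treatment. At 2 h after interferon Cry1 was also low, at 5.74 in SOCS1-/-IFNg-/- and 6.33 in IFNg-/- livers, where Nr1d1 was not high. These values come from the one Cry1 probe set of 3 with a level well above the low end of the scale, the other 2 having means of 2.23 and 2.21. Its Pearson r with Nr1d1 was -0.65 (Spearman rho -0.69), and -0.52 without the 4 h arrays.

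**Figure D3:**
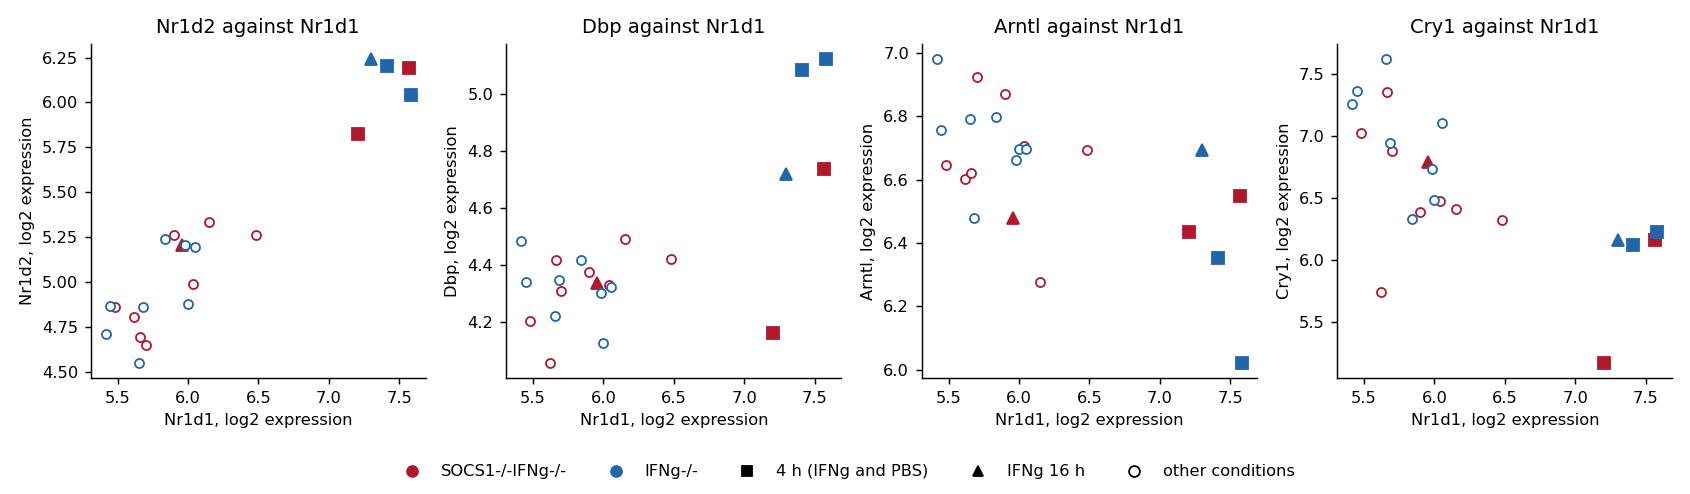
Log2 expression of Nr1d2, Dbp, Arntl and Cry1 (vertical axes) against Nr1d1 (horizontal axes), 1 point per array, red for SOCS1-/-IFNg-/- and blue for IFNg-/- livers, filled squares for the 4 h arrays, triangles for 16 h and open circles for the rest. The 4 squares and the blue triangle stand apart at a Nr1d1 of 7.21 or more in the Nr1d2 panel, while in the Dbp panel 1 red square lies low at 4.16.

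Clock output genes of liver, by the list used here, had 14 of 20 symbols measured. Nampt, the enzyme that makes the NAD precursor, was higher by 1.71 ± 0.36 in interferon against PBS livers at 4 h (adjusted p = 0.0301), the 1 of 14 called, against 1.36% of all genes. It read 8.48 with interferon and 5.79 with PBS in SOCS1-/-IFNg-/- livers, and 6.54 and 5.81 in IFNg-/- livers. The difference was 0.77 without the SOCS1-/-IFNg-/- interferon 4 h array and was not called (adjusted p = 0.143), and without the IFNg-/- one it was 2.65 (adjusted p = 3.04e-07). Pim3, a kinase, fell by 1.76 at 12 h against 4 h after interferon (difference -1.76 ± 0.41, adjusted p = 0.0393), again the 1 of 14 called, against 2.25% of all genes. It read 7.26 at 12 h and 10.1 at 4 h in SOCS1-/-IFNg-/- livers, and 7.38 and 8.06 in IFNg-/- livers. Without the SOCS1-/-IFNg-/- interferon 4 h array it was -0.72 and was not called (adjusted p = 0.189), and without the IFNg-/- one it was -2.80 (adjusted p = 3.45e-06). Nampt alone of these genes was called for variation over conditions (adjusted p = 0.042), against 4.39% of all genes. That call was lost without the SOCS1-/-IFNg-/- 16 h array. Neither tracked Nr1d1, with a Pearson r of -0.02 for Nampt and 0.18 for Pim3 over 22 arrays.

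A 24 h cosine over the hours since injection was fitted to the 20 injected arrays, which holds only if injections were given at one hour of day. Limma called 0 of the 5 genes, with 2, Per1 and Per2, at an unadjusted p under 0.05, against 0.145% of all genes called. The fitted peak of Nr1d1 lay 6.78 ± 1.01 h after injection with an amplitude of 0.70 ± 0.36 (adjusted p = 0.502). The fitted peaks of the others lay at 5.55 ± 1.96 h for Dbp, 16.6 ± 1.20 h for Per2, 18.0 ± 1.71 h for Arntl and 22.8 ± 1.47 h for Per1. Their amplitudes were, in that order, 0.17 ± 0.13, 0.24 ± 0.09, 0.15 ± 0.11 and 0.10 ± 0.03 (adjusted p from 0.182 to 0.688). No liver was taken between 4 and 12 h or between 16 and 24 h, the gaps in which all 5 fitted peaks lay. Without both 16 h arrays the Nr1d1 amplitude was 1.77 ± 0.29 and the fit was called (adjusted p = 0.0183), with a peak at 6.17 ± 0.27 h. Without the IFNg-/- 16 h array alone it was 1.24 ± 0.30 (adjusted p = 0.122). Other settings lowered it: it was 0.23 without both PBS 4 h arrays (adjusted p = 0.921), 0.36 without both interferon 4 h arrays (adjusted p = 0.867), 0.39 with array weights (adjusted p = 0.803) and 0.33 on interferon arrays alone (adjusted p = 0.846). The fitted amplitude thus moved with single conditions in both directions. The test of a cosine that differs between the genotypes called 0 of 5, with adjusted p from 0.531 to 0.979, 0 of 5 at an unadjusted p under 0.05, and 0.0485% of all genes called.

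No difference between the genotypes was called in the mean of the 11 pairs. SOCS1-/-IFNg-/- minus IFNg-/- was -0.06 ± 0.15 for Nr1d1 (adjusted p = 0.981), -0.15 ± 0.09 for Dbp (adjusted p = 0.74) and -0.06 ± 0.04 for Per1 (adjusted p = 0.763), and at most 0.01 in size for Per2 and Arntl. Limma called 0 of 5, with 0 at an unadjusted p under 0.05, against 0.206% of all genes. SOCS1-/-IFNg-/- livers were the higher of a pair in 4 of 11 pairs for Nr1d1, 4 for Dbp, 3 for Per1, 5 for Per2 and 4 for Arntl.

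Single pairs matched unequally. The Nr1d1 gap, SOCS1-/-IFNg-/- minus IFNg-/-, was -0.21 at 4 h after interferon and -0.01 at 4 h after PBS, while it was 0.80 in untreated livers, 0.59 at 0.5 h and 0.48 at 1 h after interferon. The largest was -1.34 at 16 h, where SOCS1-/-IFNg-/- read 5.96 and IFNg-/- 7.30. In that pair 99.6% of genes had a smaller gap, and Nr1d2 had a gap of -1.04 and Dbp of -0.38. The share with a gap smaller than that of Nr1d1 was 99.6% in the untreated pair too. It was 98.8% at 0.5 h and 99.1% at 1 h after interferon. Tested against the other 10 pairs, the 16 h Nr1d1 gap stood out by -1.42 ± 0.36 and was not called (adjusted p = 0.42). In that comparison 0 of all genes were called and 581 had an unadjusted p under 0.05, Nr1d1 among them. The median size of the Nr1d1 gap was 0.30, against a range of 2.01 between pair means.

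The Dbp gap was -0.92 at 4 h after interferon, where SOCS1-/-IFNg-/- read 4.16 and IFNg-/- 5.09. Against the other 10 pairs it was lower by 0.85 (difference -0.85 ± 0.21, adjusted p = 0.0394, limma). It was the 1 of 5 genes called in that pair, against 3.36% of all genes, and 0.606% called lower. In the same pair Nampt was higher by 1.88 and Pim3 by 2.08, so 3 of the 14 output genes were called, 2 higher and 1 lower. None of the 16 core clock genes was called there (Nr1d1 gap -0.21). This is the pair that holds the array furthest from the rest, and without that array the pair has no value. The call was lost without the pair of untreated, 0.5, 1, 12 h interferon, 12 h PBS or 48 h arrays, with adjusted p from 0.0506 to 0.06 and differences close to -0.85. In each of the remaining 9 pairs limma called 0 of 5, with 1 of 5, Arntl at PBS 4 h, at an unadjusted p under 0.05 in 1 of them, and 0% to 0.0121% of all genes called.

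**Figure D4:**
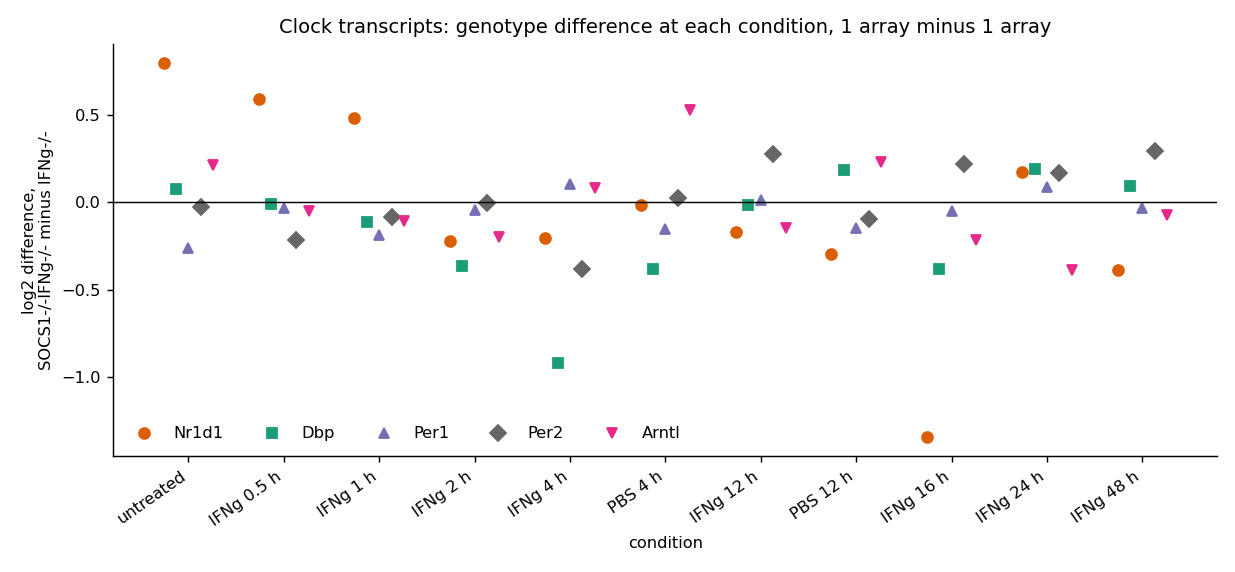
Log2 difference between the genotypes, SOCS1-/-IFNg-/- minus IFNg-/- (vertical axis), for the 5 genes at each of the 11 conditions (horizontal axis), 1 array minus 1 array. The largest gaps are Nr1d1 at 16 h (-1.34) and Dbp at 4 h after interferon (-0.92), and the Nr1d1 gaps of untreated, 0.5 h and 1 h livers are all above 0.

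Taking the 5 genes together, the root mean square gap of a pair was largest at 16 h (0.64), then at 4 h after interferon (0.46) and in untreated livers (0.39), and smallest at 12 h after interferon (0.16). The median gap of all genes in a pair ran from 0.08 to 0.18. By the 5 log2 values, the other genotype of the same condition was the nearest array for 1 of 22 arrays, and for 2 of 22 when each gene was scaled by its standard deviation. Over all genes it was the nearest for 8 of 22. A liver of the same hour with the other treatment was no match in these counts. By the 5 log2 values the IFNg-/- interferon and PBS 4 h arrays, of that kind, were each other's nearest. The IFNg-/- 16 h array and the SOCS1-/-IFNg-/- PBS 4 h array were each other's nearest in the 5 genes on both scales, at distances of 0.36 log2 units and 1.25 standard deviations.

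Over all genes with a standard deviation of at least 0.3, the pattern over 22 arrays most like that of Nr1d1 was Nr1d2 (Pearson r 0.95), then Slc25a47, a mitochondrial carrier of liver (0.66), and Rgs16, a regulator of G protein signalling (0.58). The most opposed were Cry1 (-0.65), Tat, tyrosine aminotransferase (-0.63), and Mvd, an enzyme of cholesterol synthesis (-0.63). For Dbp the most like were Nr1d2 (0.74), Nr1d1 (0.72) and Ppara, the fatty acid receptor (0.51), and the most opposed Btg1 (-0.60). For Arntl they were Btg1 (0.76), Fdft1 (0.74) and Hmgcs1 (0.73), the last 2 of cholesterol synthesis, and the most opposed was Nr1d1 (-0.61). Per2 was most like H1f2, a linker histone (0.86), and Ccnf, a cyclin (0.82), and most opposed to Socs2 (-0.77), and Per1 was most like Lpin2 (0.76), with Fasn, fatty acid synthase, the most opposed (-0.67). Other clock genes were thus among the 3 most like or most opposed patterns for Nr1d1, Dbp and Arntl. After Socs2, the most opposed to Per2 were Upp2 (-0.705) and Pim3 (-0.69), both on the clock output list. No core clock gene was among the 3 for Per1 or Per2. Dbp, Per1, Per2 and Arntl have standard deviations below 0.3 and could not appear in any ranking, so that absence decides nothing.

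Cell type and RNA measures are given beside the 4 h livers, on which the Nr1d1 result rests. The mean log2 level of the hepatocyte markers (9 of 10 measured) was 10.4 to 10.5 in the 4 h arrays, against 10.4 to 10.7 in the other 18. The Kupffer and myeloid markers (8 of 8) lay at 6.11 to 6.63, against 5.99 to 6.47, the lymphoid markers (5 of 7) at 4.90 to 5.02, against 4.84 to 5.03, and the endothelial and stellate markers (7 of 7) at 6.12 to 6.28, against 6.04 to 6.40. The 3-prime minus 5-prime signal of Actb, a measure of RNA integrity, was 0.33 to 0.83 in the 4 h arrays, against 0.47 to 1.56, and that of Gapdh 0.42 to 0.55, against 0.37 to 1.16. Of these, the myeloid markers reached above the range of the other arrays at 4 h and the Actb measure reached below it; their part in the Nr1d1 result was not tested.

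Clock genes, Per1 among them, are known to respond to glucocorticoids, so the genes that glucocorticoids induce are given beside the clock genes. Some of these, the metallothioneins and Lcn2 included, are known to rise in inflammation too. Of 15 such genes measured, the metallothioneins Mt1 and Mt2 rose by 1.97 ± 0.50 and 2.31 ± 0.47 in 4 h against 24 and 48 h livers (adjusted p = 0.0429 and 0.0159), and 2 of 15 were called, against 3.31% of all genes. Without the SOCS1-/-IFNg-/- interferon 4 h array Mt1 differed by 2.11 (adjusted p = 0.0834) and Mt2 by 2.44 (adjusted p = 0.0344), and without the IFNg-/- one Mt1 differed by 1.84 (adjusted p = 0.0578). Not every 4 h liver had this rise. In IFNg-/- livers Mt1 and Mt2 read 8.02 and 8.03 at 4 h after PBS, against 8.58 and 8.45 at 24 h and 8.85 and 8.43 at 48 h. In the SOCS1-/-IFNg-/- liver at 4 h after PBS they read 11.09 and 11.10. Variation over conditions was called for 5 of 15, Zbtb16, Mt1, Mt2, Tat and Lcn2, against 4.39% of all genes. Tat, which glucocorticoids induce too, had its 2 lowest arrays at 4 h after interferon, and rose by 1.18 ± 0.19 at 12 h against 4 h after interferon (adjusted p = 0.00578; 0.91 and adjusted p = 0.0805 without the SOCS1-/-IFNg-/- interferon 4 h array), the 1 of 15 called there, against 2.25% of all genes. At 4 h Mt2 rose by 2.90 ± 0.66 and Lcn2 by 2.85 ± 0.51 in interferon against PBS livers (adjusted p = 0.0454 and 0.0115), where Nr1d1 differed by -0.27. The Mt2 difference without the SOCS1-/-IFNg-/- interferon 4 h array was 3.16 (adjusted p = 0.229) and that of Lcn2 3.38 (adjusted p = 0.0243), and without the IFNg-/- one that of Mt2 was 2.64 (adjusted p = 0.0812). The mean log2 level of the list was 7.17 to 8.32 in the 4 h arrays, against 6.998 to 8.28 in the others, and the Pearson r with Nr1d1 was 0.21 for Mt1 and -0.63 for Tat. Of 15 feeding genes, G6pc and Pdk4 were called for variation over conditions, against 4.39% of all genes. Cpt1a alone was called in 12 h against 4 h after interferon, at -0.75 ± 0.17 (adjusted p = 0.0328), against 2.25% of all genes. Without the SOCS1-/-IFNg-/- interferon 4 h array Cpt1a differed by -0.66 and was not called. G6pc, the last enzyme of glucose release, fell by 1.40 in 4 h against 24 and 48 h livers (difference -1.40 ± 0.34, adjusted p = 0.0356), the 1 of 15 called, against 3.31% of all genes. It was -0.90 (adjusted p = 0.109) without the SOCS1-/-IFNg-/- interferon 4 h array. Without the IFNg-/- interferon 4 h array the G6pc difference was -1.90. In SOCS1-/-IFNg-/- and IFNg-/- livers G6pc read 7.12 and 9.58 at 4 h after interferon, 10.4 and 10.1 at 4 h after PBS. At 24 h it read 10.5 and 10.7, and at 48 h 10.5 and 11.1. The part of either list in the Nr1d1 result was not tested.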

How the data were processed

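RNA abundance in mouse liver was measured on 22 Affymetrix arrays, 1 per genotype and condition. The deposited values are log2 expression summaries that the authors had already normalized; affy appears in the submitters' processing notes, and which steps it ran was not given in the sources used here. Values ran from 1.73 to 13.5 with 0 missing, and array medians from 5.64 to 5.71. The number of arrays limits the precision. Of 12488 probe sets, 66 were controls, 10833 carried 1 symbol in the platform's probe table, 396 several and 1193 none. Only those with 1 symbol were used, and the one with the highest mean stood for a gene, which left 8251 genes. All 5 clock genes matched RefSeq (GRCm38.p6).

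Tests used limma 3.58.1 in R 4.3.3 on all genes, with Benjamini-Hochberg adjustment. Conditions were compared in an additive model of 11 conditions and genotype (10 residual degrees of freedom), genotypes on the 11 within-condition differences (10, or 9 for 1 pair against the others), and the 24 h cosine on 20 injected arrays (16, or 14 with genotype terms). The fits were tested on simulated data. Alternatives were the mean over probe sets, trend and robust variance, array weights, quantile normalization, median centring, only genes at or above the median mean level, leaving out conditions, and other forms of the cosine. Single arrays were left out, for the clock genes and the called genes of the lists, after the data were seen.

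By the rule for named genes, the text describes the 5 clock genes, up to 4 called genes of each list per comparison, and for each clock gene up to 3 genes with the highest and 3 with the lowest Pearson r. The 5 genes and all lists were chosen with earlier results of these data known. Nr1d2 and Cry1 values per array, Cxcl9 and Gbp2 in the PBS livers, the Nampt and Pim3 correlations and the count of arrays that Nr1d1 and Nr1d2 share were picked out after their values were seen.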

Additional observations from a re-analysis of the deposited data

Results flagged for a closer look

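The genotype difference in Dbp at 4 h after interferon was called against that in the other 10 conditions, as were 3.36% of all genes. SOCS1-/-IFNg-/- minus IFNg-/- was lower there than the mean of the other pairs (log2 difference -0.85 ± 0.21, adjusted p = 0.0394, limma), from 4.16 on 1 SOCS1-/-IFNg-/- array and 5.09 on 1 IFNg-/- array. The Dbp gap was also below 0 at 2 h after interferon (-0.36), 4 h after PBS (-0.38) and 16 h (-0.38). The 4 h interferon pair holds the array furthest from the rest. Its Dbp call was lost with trend and robust variance, with quantile normalization and without several of the other pairs.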

How the results depend on the processing

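Where limma's counts of called clock genes moved, they did so as follows. With trend and robust variance, 12 h against 4 h after interferon called 1 of 5 in place of 2, and the 4 h interferon pair against the others called 0 in place of 1 (Dbp adjusted p = 0.0538); variation over conditions still called 1, but it was Per2 (adjusted p = 0.0443) in place of Nr1d1 (adjusted p = 0.0707). With array weights, variation over conditions called 2 and 12 h against 4 h after interferon 0. Quantile normalization gave 2 and, in the 4 h interferon pair, 0 (Dbp adjusted p = 0.0681). With only genes at or above the median mean level, among which Dbp, Per1 and Per2 are not tested, 12 h against 4 h after interferon called 1 and the 4 h interferon pair 0. Leaving out conditions or single arrays gave 0 to 2 in variation over conditions, 0 to 1 in 12 h against 4 h after PBS, 0 to 2 in 12 h against 4 h after interferon, 0 to 2 in interferon against PBS at 4 h, 0 to 2 in 4 h against 24 and 48 h, 0 to 1 in the cosine and 0 to 1 in the 4 h interferon pair. The cause was not tested. The other counts kept their side, those under median centring included. The mean over probe sets leaves the values of the 5 genes unchanged, since each has 1 probe set, so its like counts say little about them. No called difference turned its direction in any setting run, and 38 of 1519 uncalled differences changed sign. No member has a second probe set of its own that could be put in place of the first. The labels carry no replicate numbers, and pairs here are the genotypes of a condition. Per2 and Dbp lie low on the arrays' scale, which limits what their differences can show.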
